A study of Arabidopsis thaliana with 16 samples.

Results

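The genes described here are leucine-rich repeat receptor-like kinases of Arabidopsis thaliana, a listed set of 60 loci on chromosomes 1 and 2. A gene was measured if the array held a probe set, a group of probes read together as 1 value, that is annotated to exactly that gene. This applied to 38 of the 60 loci, each with 1 such probe set, among 13286 genes measured in that way and 22746 probe sets tested in all. The other 22 loci are not analysed here, among them PEPR1, PEPR2, SOBIR1, FRK1, IOS1, SERK2, NIK3, RKL1, HSL1, FEI1 and FEI2. Many of the best-known receptors of danger peptides and of the cell wall are therefore outside the 38. In the gene table used here the 38 carry only their locus tag as a symbol, so roles given below are general knowledge about the loci.

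RNA came from suspension-cultured cells of the ecotype Landsberg erecta, which is known to carry a mutation in ERECTA, itself a receptor kinase of this family that is not among the 60. All cultures grew in darkness at 21 ºC in Murashige and Skoog medium with 2,4-D, a synthetic auxin. On day 3 after sub-culture they received 2 µM TA, 100 nM IXB or methanol alone for 6 h, and 20 µL of methanol was added in every group, so the controls are solvent controls. TA and IXB are, as general knowledge, thaxtomin A, a toxin of plant-pathogenic Streptomyces, and isoxaben, a herbicide, and both inhibit cellulose synthesis. There were 4 replicates of each treatment, each pooled from 2 flasks of 100 mL, on 12 Affymetrix ATH1 arrays.

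Proteins of this family have a leucine-rich repeat domain outside the cell, 1 membrane span and a kinase domain inside. The repeats bind a ligand, often a small peptide, together with a shorter co-receptor of the same family, and the paired kinases then start phosphorylation inside the cell. Members are known for perceiving microbes and damage, for peptide hormones that steer growth, and for sensing the state of the cell wall. The comparisons ask how the transcripts of these receptors differed after either inhibitor of cellulose synthesis.

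Values are log2 expression made by the authors with RMA, a method that corrects background, brings arrays to a common distribution and summarises probes. The 4 methanol arrays were deposited once with the TA arrays and once with the IXB arrays, with column medians of 4.76 to 4.85 in the first set and 5.20 to 5.30 in the second. For that reason TA and IXB were each set against the methanol columns deposited with them, and levels are not compared between sets or between genes. A change is the difference of log2 means, and a gene is called higher or lower where limma's adjusted p was under 0.05. The number of arrays limits the precision, and the median standard error of a member's change was 0.095 with TA, 0.09 with IXB and 0.099 in the direct comparison of the compounds. As a check on the tissue, 1 of 11 photosynthetic genes had a usable probe set, RCA, the activase of Rubisco, which lay between 9.06 and 9.72 on the 16 columns, above 93.8% to 95.4% of probe sets, in cells grown in darkness. It did not pass the test with either compound, at changes of 0.01 with TA and -0.13 with IXB.

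Many of the receptors were dim. In methanol the 38 mean values ran from 2.06 for AT1G53420 to 11.21 for AT2G01820 in the TA set, with a median of 3.50. Averaged over the TA set, 28 of the 38 members were under a log2 value of 5, against 51.7% of all probe sets. RMA compresses changes of dim probe sets, so a small change of such a gene is uncertain in size. The counts below are therefore also given for brighter and dimmer probe sets apart.

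With TA, 7 of the 38 receptors fell and 1 rose. The 7 that fell make up 18.4% of the members, where 4.7% of all probe sets were called lower. The 1 that rose makes up 2.63%, where 5.41% of all probe sets were called higher. The falls were small, from 0.25 to 0.73 on the log2 scale, or 1.19-fold to 1.66-fold. In 8 members all 4 TA arrays lay below all 4 methanol arrays (21.1%, against 8.57% of all probe sets), and in 1 member they lay above (2.63%, against 7.45%). The median change was -0.03 over the members and -0.01 over all probe sets. The remaining 30 members did not pass, with changes from -0.29 to 0.20 and 95% intervals within -0.54 and 0.43. In whole cultures, fewer cells of a type and less RNA per cell cannot be told apart.

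The falls were spread over bright and dim members. Of the 10 members with a mean of at least 5, 4 fell (40%, against 8.08% of all probe sets of that level) and 0 rose (against 8.24%). In this group 8 of the 10 changes were negative, with a median of -0.24 where all such probe sets had -0.04. Of the 28 dimmer members, 3 fell (10.7%, against 1.54%) and 1 rose (3.57%, against 2.76%), with a median of -0.01. These shares describe a list that was drawn up with earlier results of these data known.

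**Figure D1:**
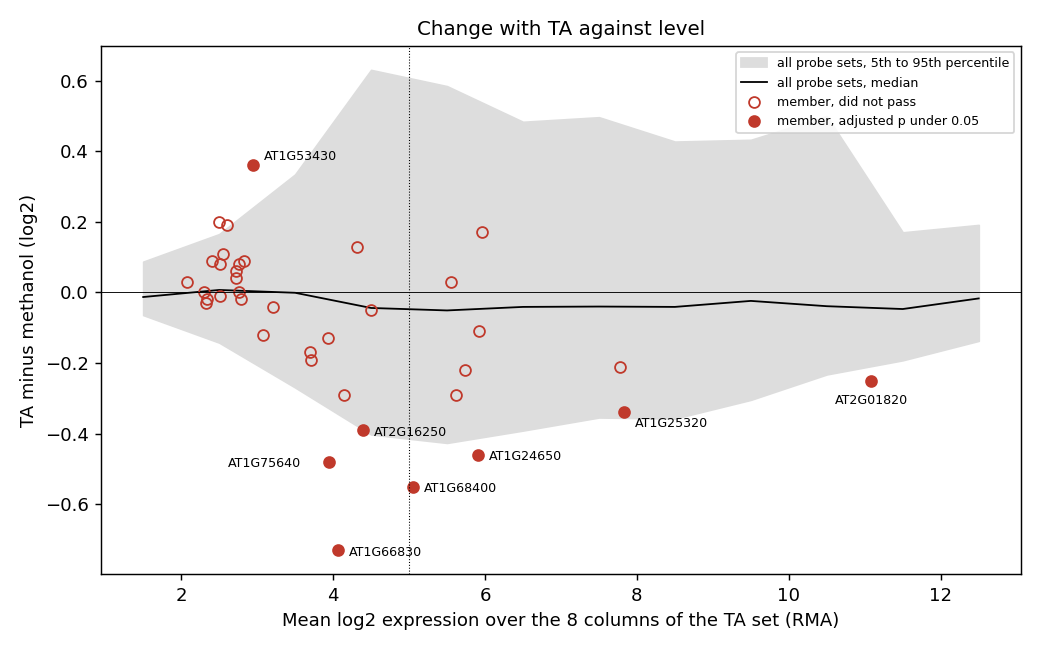
Change with TA (vertical axis, TA minus methanol, log2) against the mean log2 value over the 8 columns of the TA set (horizontal axis) for the 38 receptors, with the middle line and the 5% to 95% band of all probe sets by level. The 7 receptors that fell have means on either side of 5 (dotted line), and the 1 that rose is dim.

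Subfamily III, receptors with a short repeat domain, held the 2 largest falls. With TA, 3 of its 8 measured genes fell (37.5%, against 4.7% of all probe sets) and 0 rose (against 5.41%), and the median change of the 8 was -0.18. With 8 genes this share describes those genes only. AT1G66830 fell the most of the 38. Its methanol arrays read 4.34, 4.60, 4.28 and 4.50, and its TA arrays 3.88, 3.65, 3.53 and 3.76. Every TA array was below every methanol array, by at least as much as the methanol arrays spread among themselves. The mean went from 4.43 ± 0.15 to 3.70 ± 0.15 (SD, n = 4), a change of -0.73 (SE 0.10, 95% interval -0.94 to -0.52, limma adjusted p = 0.000312), which is 1.66-fold lower.

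AT1G68400, also of subfamily III, was the only measured receptor called with both compounds. Its methanol arrays of the TA set were almost level at 5.32, 5.32, 5.31 and 5.39, and the TA arrays read 4.87, 4.80, 4.90 and 4.54. All 4 TA arrays lay below the controls, with replicate 4 the lowest. The mean went from 5.33 ± 0.04 to 4.78 ± 0.17 (SD, n = 4), a change of -0.55 (SE 0.09, limma adjusted p = 0.00117), or 1.47-fold lower.

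The third, AT1G25320, was among the brighter receptors. It read 7.93, 8.08, 8.12 and 7.86 with methanol and 7.74, 7.72, 7.63 and 7.54 with TA. The groups did not overlap, but the gap between them was narrow. The change was -0.34 (SE 0.08, 95% interval -0.52 to -0.16, limma adjusted p = 0.0205), or 1.26-fold lower. Of 8 fits that left out 1 array, the call was lost in 4, those without methanol replicate 2 or 3 and those without TA replicate 3 or 4, at changes of -0.33 to -0.30 and adjusted p of 0.05044 to 0.0662. The other 5 genes of the subfamily had changes between -0.22 and 0.20 (AT1G64210, adjusted p = 0.254). The lowest of these, AT2G26730, read 5.69, 6.05, 5.85 and 5.75 with methanol and 5.68, 5.71, 5.68 and 5.39 with TA, where the groups overlapped (adjusted p = 0.206).

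Among receptors linked to the wall and to growth, 3 of 6 measured genes fell with TA (50%, against 4.7% of all probe sets) and 0 rose (against 5.41%). With 6 genes this share describes those genes only. AT1G24650 and AT2G01820 belong to the transmembrane kinase family, known for its part in auxin-dependent growth, and AT1G75640 is known for the symmetric shape of stomata. AT1G75640 read 4.17, 4.25, 4.09 and 4.24 with methanol and 3.91, 3.56, 3.62 and 3.72 with TA. All 4 TA arrays lay below all 4 methanol arrays. The change was -0.48 (SE 0.09, 95% interval -0.67 to -0.29, limma adjusted p = 0.00315), or 1.40-fold lower.

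AT1G24650 read 6.20, 6.33, 5.98 and 6.06 with methanol and 5.50, 5.58, 5.64 and 5.99 with TA. TA replicate 4 lay within the methanol range, so here the groups overlapped. The change was -0.46 (SE 0.11, 95% interval -0.71 to -0.22, limma adjusted p = 0.0177), or 1.38-fold lower. Without methanol replicate 1 or 2, and without any of TA replicates 1, 2 and 3, AT1G24650 no longer passed, at changes of -0.45 to -0.40 and adjusted p of 0.05018 to 0.0614.

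AT2G01820 had the brightest probe set of the 38 and the tightest replicates among the called genes. It read 11.20, 11.26, 11.18 and 11.21 with methanol and 10.94, 10.93, 10.94 and 11.03 with TA. All TA arrays were below all methanol arrays although the shift was small. The change was -0.25 (SE 0.07, 95% interval -0.40 to -0.11, limma adjusted p = 0.0316), or 1.19-fold lower. AT2G01820 kept its call in 2 of 8 fits that left out 1 array and lost it without methanol replicate 1, 2 or 4 and without any of TA replicates 1, 2 and 3, at changes of -0.26 to -0.24 and adjusted p of 0.0543 to 0.089. The 3 other measured genes of the group had TA changes of 0.13 for AT1G34110, a receptor of root meristem growth factor peptides (adjusted p = 0.617), 0.11 for AT1G79620 (adjusted p = 0.593) and -0.05 for AT2G01210, known from division of the zygote (adjusted p = 0.85). The largest change among these 3 was that of AT1G34110 with IXB, 0.25 (adjusted p = 0.298), from 4.15, 4.31, 4.49 and 4.12 with methanol to 4.29, 4.62, 4.79 and 4.38, with overlap.

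Of 10 measured receptors in none of the role or subfamily lists, 0 rose with TA (against 5.41% of all probe sets). AT2G16250 was the 1 that fell (10%, against 4.7%), and 1 call in 10 genes is no result about the group. AT2G16250 read 4.44, 4.67, 4.41 and 4.82 with methanol and 4.25, 4.40, 3.93 and 4.20 with TA, so the highest TA array lay just under the lowest methanol array. The change was -0.39 (SE 0.11, 95% interval -0.64 to -0.14), with a limma adjusted p of 0.04998 at the edge of the threshold. Leaving out methanol replicate 1, 2 or 4, or any of TA replicates 1, 3 and 4, ended the call, at changes of -0.44 to -0.30 and adjusted p of 0.0535 to 0.148. It was also lost with an intensity trend (adjusted p = 0.0664) or a robust prior (adjusted p = 0.05031) in limma. The largest change of the other 9 was -0.29 for AT1G63430 (adjusted p = 0.151), which read 5.77, 6.01, 5.61 and 5.65 with methanol and 5.72, 5.31, 5.28 and 5.58 with TA.

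The 1 receptor that rose with TA was AT1G53430, of subfamily VIII-2, whose outer part joins leucine-rich repeats to a malectin domain, a fold that in animals binds sugars. It read 2.59, 2.81, 2.88 and 2.78 with methanol and 3.17, 3.03, 3.31 and 3.00 with TA. All 4 TA arrays were above the methanol arrays, yet both groups were dim, well under a log2 value of 5. The change was 0.36 (SE 0.09, 95% interval 0.16 to 0.56, limma adjusted p = 0.0246). This call ended when methanol replicate 1 or 4, or either of TA replicates 1 and 3, was left out, at changes of 0.30 to 0.37 and adjusted p of 0.0581 to 0.0796. Its direct neighbours in the genome belong to the same subfamily and were measured too. They changed by 0.03 (AT1G53420, adjusted p = 0.896) and 0.06 (AT1G53440, adjusted p = 0.764), and AT1G07650, the other measured gene of the subfamily, by 0.09 (adjusted p = 0.67). AT1G07650 had the largest change of these 3 with IXB, 0.22 (adjusted p = 0.345), with 2.82, 2.91, 2.99 and 2.89 in methanol and 2.76, 3.33, 3.14 and 3.27 after IXB, where replicate 1 was below all controls.

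**Figure D2:**
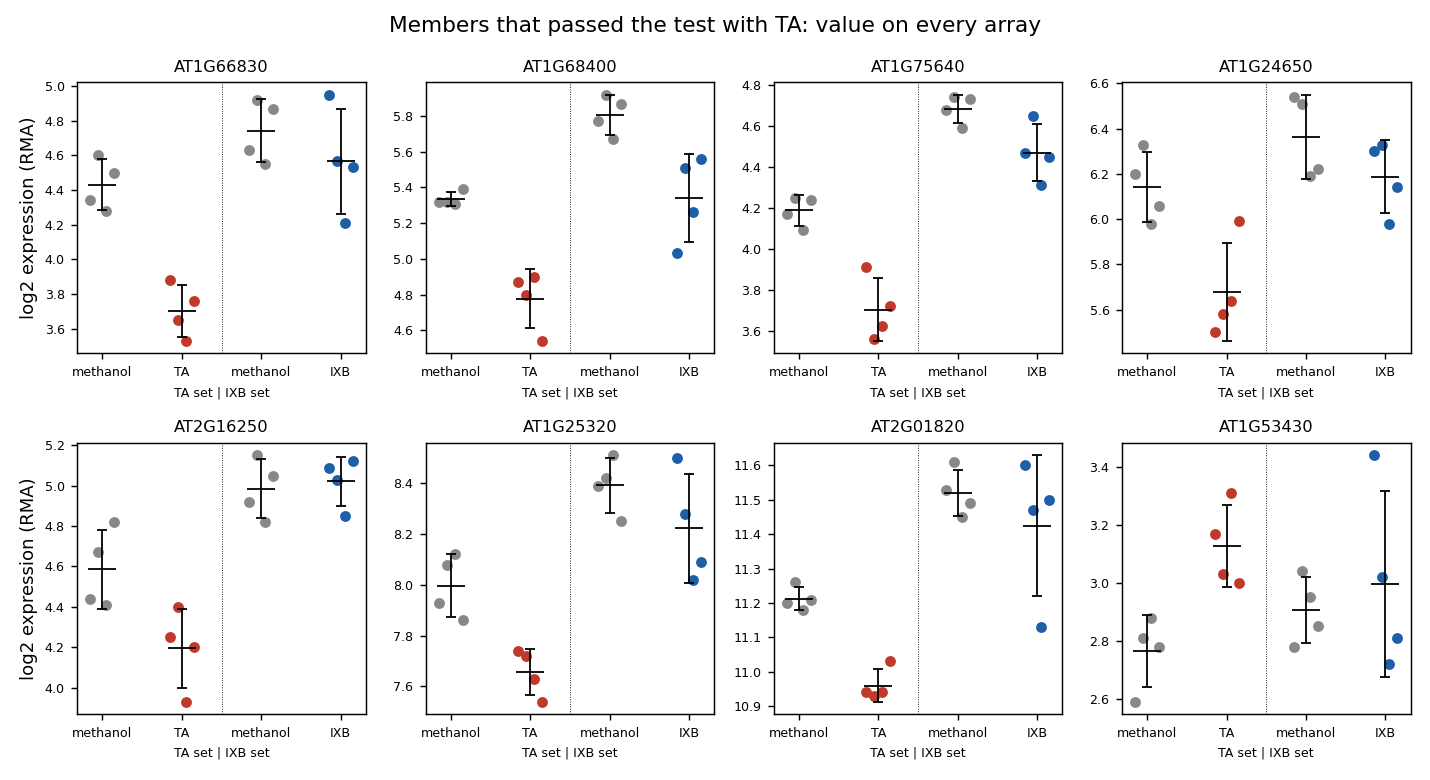
The log2 value on every array for the 8 receptors that passed the test with TA, with methanol and TA of the TA set on the left of each panel and methanol and IXB of the IXB set on the right, points for arrays and bars for means. The TA arrays lie below methanol in 6 panels without overlap, AT1G24650 overlaps at 1 array, and AT1G53430 lies above.

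Subfamily I, with a malectin-like domain outside the repeats and members known from defence, gave 0 calls in 7 measured genes with either compound, where 10.1% of all probe sets were called in either direction with TA and 3.01% with IXB, shares at which 0 calls in 7 genes is no result about the subfamily. With TA their changes ran from -0.12 (AT1G51790) to 0.09 (AT1G51850), with 95% intervals within -0.33 and 0.25. With IXB they ran from -0.21 to 0.14, with intervals within -0.46 and 0.29, and 0 of the 7 had an unadjusted p under 0.05 in limma with either compound. The largest of these changes was that of AT1G51790 with IXB, which read 3.09, 3.39, 3.52 and 3.15 with methanol and 2.83, 3.08, 3.11 and 3.29 with IXB, groups that overlapped. Methanol means were 2.30 to 5.98, and AT2G37050 was the only one at or above 5.

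Receptors of peptides and immune signals had 3 of 9 measured genes. Of these AT1G53430 rose with TA (33.3%, against 5.41% of all probe sets) and 0 fell (against 4.7%). AT1G74360, needed in Arabidopsis for the response to nematodes, read 2.48, 2.56, 2.61 and 2.41 with methanol and 2.44, 2.75, 2.70 and 2.91 with TA, where the groups overlapped (change 0.19, adjusted p = 0.305). AT1G35710 changed by 0.04 (adjusted p = 0.879). With IXB the 3 genes changed by 0.02 to 0.12 and 0 were called, against 3.01% of all probe sets in either direction. At that share 0 calls in 3 genes is no result about the group, and neither is the 1 call in 3 genes with TA.

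The co-receptors and their regulators had 2 of 4 measured genes, and 0 passed with either compound in the fit without pairs. Of all probe sets, 10.1% were called in either direction with TA and 3.01% with IXB. At these shares 0 calls in 2 genes is no result about the group. AT2G23950, a co-receptor for CLE peptides, came closest. In the IXB set it read 4.57, 4.64, 4.53 and 4.72 with methanol and 4.46, 4.17, 4.10 and 4.29 with IXB, and the groups did not overlap. The change was -0.36 (SE 0.09, 95% interval -0.55 to -0.17, limma adjusted p = 0.0518), and with same-numbered arrays as a replicate block it passed (adjusted p = 0.0463). With TA it read 4.46, 4.26, 4.09 and 4.35 in methanol and 4.09, 4.06, 3.98 and 3.87 after treatment, a change of -0.29 (adjusted p = 0.0643) with methanol replicate 3 level with the highest TA array. Leaving out methanol replicate 3 gave -0.36 with TA (adjusted p = 0.0224), and leaving out IXB replicate 1 gave -0.43 with IXB (adjusted p = 0.0245). AT1G27190, which binds the co-receptor BAK1 and keeps it from receptors, changed by -0.21 with TA (adjusted p = 0.162) and -0.11 with IXB (adjusted p = 0.516).

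With IXB, 1 of the 38 receptors fell (2.63%, against 0.809% of all probe sets) and 0 rose (against 2.2%). In limma 3 had an unadjusted p under 0.05, all lower, which is 7.89% of the members against 17.3% of all probe sets, and 0 were higher at that level. The groups did not overlap in 2 members that were lower (5.26%, against 6.24%) and 1 that was higher, AT1G51805 (2.63%, against 5.35%). The median change was 0.01. Of the 37 that did not pass, changes ran from -0.36 to 0.25 with 95% intervals within -0.55 and 0.51. By level in the IXB set, 1 of 12 members with a mean of at least 5 fell (8.33%, against 1.3%) and 0 rose (against 3.34%), and of 26 dimmer members 0 fell (against 0.267%) and 0 rose (against 0.957%).

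The gene that fell was AT1G68400. It read 5.77, 5.92, 5.67 and 5.87 with methanol and 5.03, 5.51, 5.26 and 5.56 with IXB. All 4 IXB arrays were below methanol, and they spread more widely than the controls. The change was -0.47 (SE 0.11, 95% interval -0.71 to -0.22, limma adjusted p = 0.0473), or 1.38-fold lower. It was lost in 6 of 8 fits that left out 1 array, those without methanol replicate 1, 2 or 4 and those without IXB replicate 1, 2 or 3, at changes of -0.52 to -0.36 and adjusted p of 0.0618 to 0.123, and with each column centred on its median (adjusted p = 0.05022). With same-numbered methanol and IXB arrays as pairs, the replicate block gave an adjusted p of 0.0145 for AT1G68400 and of 0.0463 for AT2G23950, so that 2 members were lower.

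The 7 other genes called with TA did not pass with IXB. Their IXB changes were -0.21 for AT1G75640 (adjusted p = 0.201), -0.18 for AT1G66830 (0.571), -0.18 for AT1G24650 (0.43), -0.17 for AT1G25320 (0.443), -0.10 for AT2G01820 (0.67), 0.04 for AT2G16250 (0.881) and 0.10 for AT1G53430 (0.775). Both compounds share the methanol arrays, so these values are given side by side only, and whether the compounds differ was tested directly.

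**Figure D3:**
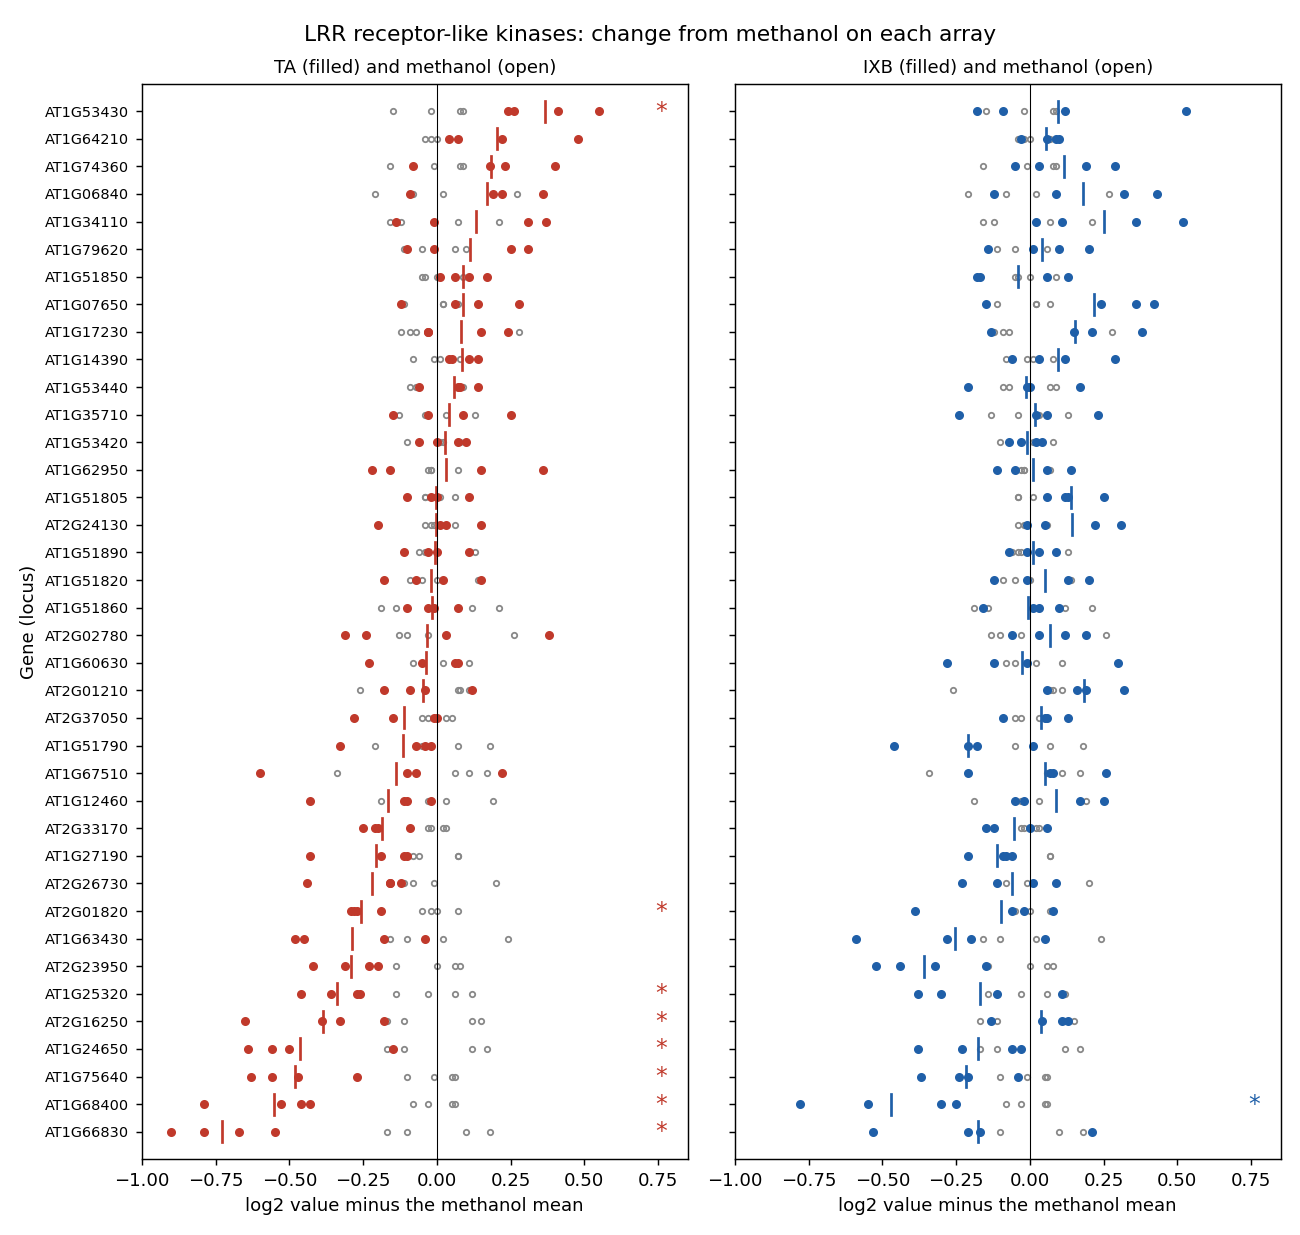
Change of each of the 38 receptors from the methanol mean (horizontal axis, log2) on every array, with TA on the left and IXB on the right as filled points and methanol as open points. With TA, AT1G66830 lies farthest from 0, and for most receptors treated and methanol points overlap.

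For the direct comparison, the methanol mean of the same set was subtracted from every value first. The standard errors, intervals and p-values of this comparison leave out the error of those means that does not cancel between the sets. In TA against IXB, 2 of the 38 receptors were lower with TA (5.26%, against 2.05% of all probe sets) while 0 were higher (against 2.72%). In limma 7 had an unadjusted p under 0.05 (18.4%, against 19.6%), 6 lower and 1 higher. The TA and IXB arrays did not overlap in 2 members, both lower with TA (5.26%, against 5.5%), and in 0 with TA higher (against 6.08%). The median difference was -0.08 over the members and 0 over all probe sets, and 27 of the 38 differences were negative. Of the 10 members with a mean of at least 5 over all columns, 0 were lower (against 3.1%) and 0 higher (against 4.03%). Both genes that passed were among the 28 dimmer members (7.14%, against 0.999%), where 0 were higher (against 1.39%).

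AT1G66830 was 0.73 below methanol with TA and 0.18 below with IXB. The difference was -0.55 (SE 0.13, 95% interval -0.83 to -0.28, limma adjusted p = 0.0234). In the IXB set this gene read 4.63, 4.92, 4.55 and 4.87 with methanol and 4.95, 4.57, 4.21 and 4.53 with IXB, with IXB replicate 1 above all controls and replicates 3 and 4 below them, replicate 4 by little. In 5 of 12 fits that left out 1 array the call was lost, those without TA replicate 2 or 3 and those without IXB replicate 1, 2 or 4, at differences of -0.56 to -0.42 and adjusted p of 0.0558 to 0.0674.

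AT2G16250 was below methanol with TA and level with it under IXB, where it read 4.92, 5.15, 4.82 and 5.05 in methanol and 5.09, 5.03, 4.85 and 5.12 after treatment. The difference was -0.43 (SE 0.10, 95% interval -0.65 to -0.21, limma adjusted p = 0.0281). The difference no longer passed without methanol replicate 4, without TA replicate 3 and without IXB replicate 1, 2 or 4, at differences of -0.42 to -0.34 and adjusted p of 0.0558 to 0.0852.

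The other 6 genes called with TA did not pass in TA against IXB. AT1G75640 differed by -0.27 (adjusted p = 0.0972), AT1G24650 by -0.29 (adjusted p = 0.164) and AT1G53430 by 0.27 (adjusted p = 0.255). The call was gained by AT1G75640 without TA replicate 1 (adjusted p = 0.0452), by AT1G24650 without TA replicate 4 (adjusted p = 0.0458) and by AT1G53430 without IXB replicate 1 (0.41, adjusted p = 0.0375). For AT1G68400, the gene lower with both compounds, the difference was -0.09 with a 95% interval from -0.32 to 0.15 (adjusted p = 0.724). Over the 36 members that did not pass, the intervals lay within -0.53 and 0.54.

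**Figure D4:**
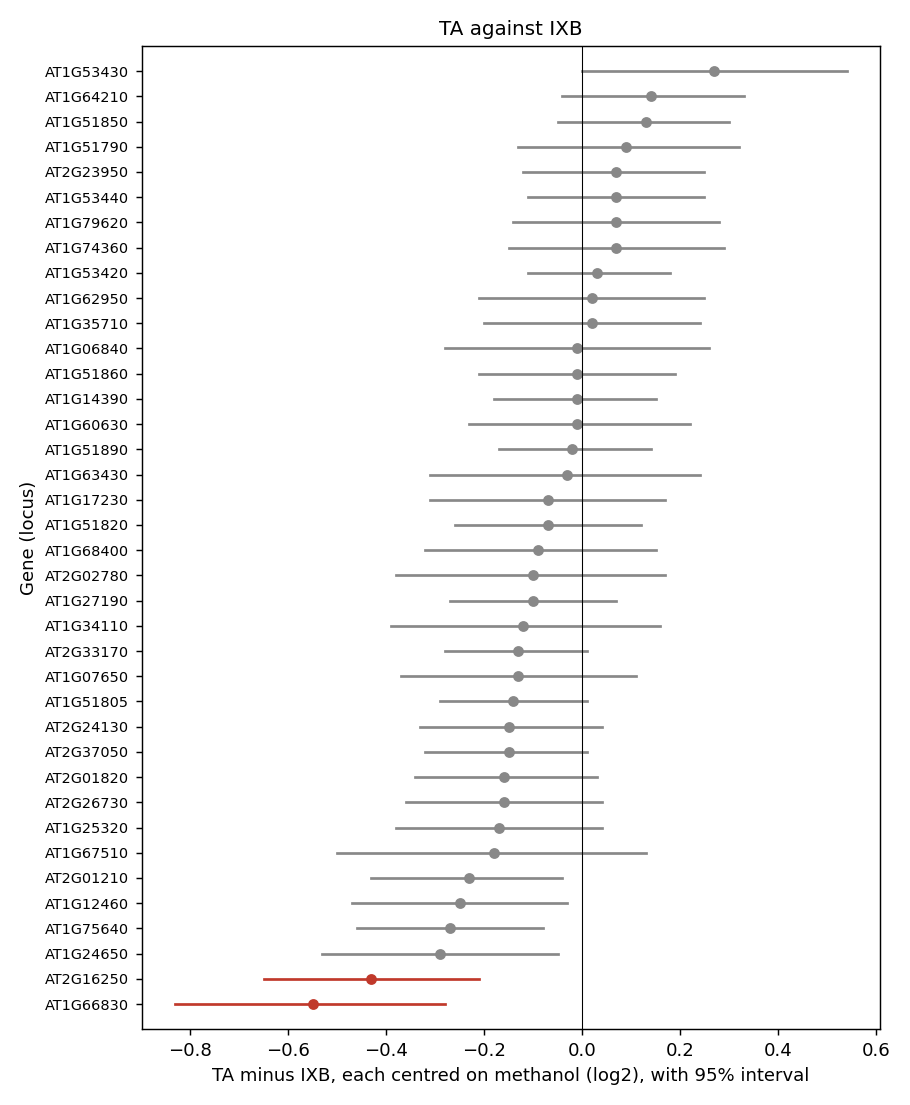
Difference between TA and IXB (horizontal axis, log2, each centred on its methanol mean) with its 95% interval for each of the 38 receptors. The intervals of AT1G66830 and AT2G16250, the 2 that passed, lie below 0, and 27 of 38 points are negative.

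Few other genes of receptor signalling had a probe set annotated to exactly 1 gene. In the annotation used, 8730 of the 22746 tested probe sets are unnamed, so a gene not measured here may still be on the array. Of 39 further leucine-rich repeat receptor kinases 10 were measured, and with TA 1 was higher, AT5G49760 (0.49, adjusted p = 0.0404), and 1 lower, the brassinosteroid receptor BRL1 (-0.43, adjusted p = 0.0356). These are 10% each way, near the 5.41% and 4.7% of all probe sets, while 0 were called with IXB (against 3.01% in either direction). With IXB 3 had an unadjusted p under 0.05 in limma, all higher (30%, against 17.3%). Of 8 receptor-like cytoplasmic kinases, some of which carry the signal from the receptors, 4 were measured and 2 rose with TA, AT5G35580 (0.36, adjusted p = 0.0121) and AT3G09830 (0.31, adjusted p = 0.0284), or 50% against 5.41% of all probe sets. With 4 genes this share describes those genes only. BIK1, the best-known of these kinases, changed by 0.00 with TA. With IXB 0 of the 4 were called (against 3.01%) and limma gave 1, which was higher, an unadjusted p under 0.05 (25%, against 17.3%). Of 13 peptide ligands 3 were measured and 0 were called in limma with either compound (against 10.1% with TA and 3.01% with IXB). At an unadjusted p under 0.05 in limma the count was also 0 (against 22.5% and 17.3%). With 3 genes these counts are no result about the ligands. Of 24 downstream genes 3 were measured, the ubiquitin ligases PUB22, PUB23 and PUB24 that dampen immune receptor signalling, and all 3 rose with TA (against 5.41% of all probe sets) by 1.63, 1.37 and 0.35, while PUB23 rose with IXB (against 2.2%) by 0.85. With 3 genes these counts describe the 3 ligases only.

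Genes of the low-oxygen response moved with TA as well. Of 24 listed genes 11 were measured, 9 rose with TA (81.8%, against 5.41% of all probe sets) and 0 with IXB (against 2.2%). With IXB, limma gave 2 of the 11, each higher, an unadjusted p under 0.05 (18.2%, against 17.3%). Their mean, relative to methanol, was 1.43, 0.96, 1.41 and 1.20 on the TA arrays, -0.62, 0.41, 0.90 and 0.88 on the IXB arrays and -0.03, -0.52, 0.19 and 0.35 on the methanol arrays. All TA arrays were above all methanol arrays, so a fit has little to separate this mean from TA treatment. With the mean as a covariate, a setting chosen after seeing the data, 0 receptors were called with TA, where 141 probe sets were called higher and 1 lower in all. AT1G66830 then changed by -0.58 (SE 0.25, adjusted p = 0.68), AT1G68400 by -0.70 (SE 0.23, adjusted p = 0.392) and AT1G75640 by -0.55 (SE 0.23, adjusted p = 0.631). Changes nearer to 0 than before were those of AT1G24650 (-0.09 after -0.46), AT1G25320 (-0.18 after -0.34), AT2G16250 (-0.24 after -0.39), AT2G01820 (-0.19 after -0.25), AT1G66830 (-0.58 after -0.73) and AT1G53430 (0.20 after 0.36). For AT1G66830 and AT1G68400 the standard errors without the covariate were 0.10 and 0.09. Because that fit has little to separate the low-oxygen mean from TA treatment, the part of low oxygen in the receptor changes was not tested.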

How the data were processed

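Transcripts were measured on 12 ATH1 arrays, 4 each of methanol, TA and IXB, and whether replicates had separate parent cultures is not stated in the labels; p-values cover only the spread of these samples, which may be technical. The deposited values are log2 expression made with RMA by the authors, per the submitters' processing notes, with no version named. RMA hides a shift common to all transcripts and compresses changes of dim genes.

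Of 22810 probe sets, 64 controls were left out. Of 22746 tested, 13513 are annotated to 1 gene, 503 to several and 8730 are unnamed here; 13436 were found by locus in the gene table of TAIR10.1, used for names only. Each compound was fitted against methanol within its set of 8 columns, with limma 3.58.1 in R 4.3.3 (lmFit, eBayes, two-sided), adjusted by Benjamini-Hochberg over all tested probe sets, threshold 0.05. TA against IXB used 12 arrays centred on the methanol mean of their set, with the 2 versions of a methanol array averaged and counted once. The code was tested on simulated data.

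The members and lists were chosen with earlier results of these data known. Every member may be named; members past the threshold have their value on every array, and of the others the one with the largest change in each role group is given. Of other lists up to 3 genes past the threshold are named.

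Pairing was checked from deviations from the group means. Same-numbered methanol and IXB arrays correlated at 0.147, 0.101, 0.132 and 0.144, all above 0.1, although the labels state no shared culture or day. Differently numbered ones ran from -0.212 to 0.295, the highest for methanol replicate 2 and IXB replicate 1. These correlations therefore do not single out same-numbered arrays as pairs. The IXB results are from the fit without pairs, and the fit with same-numbered arrays as a replicate block is given beside those whose call it changed. For methanol and TA the values were 0.032, -0.063, 0.295 and 0.078, against -0.21 to 0.159 for different numbers. Whether those numbers are pairs is not established. The 2 versions of a methanol array correlated at 0.807 to 0.873.

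The alternatives tried were array weights, a replicate block, a trend or robust prior in eBayes, quantile normalization, median centring, removal of dim probe sets and of those that can bind related transcripts, thresholds of 0.01 and 0.1, a fit of the TA and IXB arrays only, and leaving out each array. The low-oxygen covariate was added after seeing the data. Figures were drawn in Python.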

Additional observations from a re-analysis of the deposited data

Results flagged for a closer look

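In 10 of 152 groups of 4 arrays, 1 array stood apart from the other 3 of its group by a gap above Dixon's 95% critical value for its share of the group's range. Chance flags about 1 in 20 groups, but the methanol arrays entered in both sets, so the 152 groups are not all separate. No gene was flagged in methanol of both sets. In methanol of the TA set, AT1G07650 read 2.65 on replicate 1 (others 2.81 to 2.84), AT1G17230 read 3.05 on replicate 3 (others 2.58 to 2.61), AT1G60630 read 3.34 on replicate 4 (others 3.17 to 3.19) and AT1G68400 read 5.39 on replicate 4 (others 5.31 to 5.32). In methanol of the IXB set, AT1G67510 read 4.05 on replicate 2 (others 4.53 to 4.62), AT2G01210 read 4.71 on replicate 3 (others 5.03 to 5.07) and AT2G33170 read 4.59 on replicate 3 (others 4.70 to 4.71). With TA, replicate 4 stood apart for AT1G51790 at 2.81 (others 3.07 to 3.12), for AT2G01820 at 11.03 (others 10.93 to 10.94) and for AT2G26730 at 5.39 (others 5.68 to 5.71). Of these genes, AT1G68400 and AT2G01820 were called with TA, and in both all TA arrays lay below all methanol arrays with the array in question included.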

How the results depend on the processing

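No receptor called in a comparison changed direction under any alternative run. With TA, the count of receptors that fell was 7, and it was 4 with probe sets under a mean of 5 left out (10 members remain), 3 at an adjusted p under 0.01, 0 with the mean of the low-oxygen list in the model, and 3 to 7 when 1 array was left out, with 3 without methanol replicate 2 or TA replicate 3 and 4 without replicate 1 of methanol or of TA. The count that rose was 1, and it was 0 in the first 3 of these and 0 to 1 with an array left out. The count that fell was 8 with array weights, which added AT2G23950 (adjusted p = 0.0233), and 8 at a threshold of 0.1. The replicate block, whose numbers are not established as pairs, gave 6 lower and lost AT2G01820 (adjusted p = 0.0602). AT1G66830, AT1G68400 and AT1G75640 stayed called in every fit without 1 array, 3 of the 8 calls. Of all 22746 probe sets, 1069 were lower with TA in the main fit, 397 at 0.01 and 1 with the covariate. With an array left out 637 to 1137 were, the fewest without methanol replicate 2 or TA replicate 3. Array weights gave 1422 lower, a threshold of 0.1 gave 1675 and the replicate block 1181. Without dim probe sets, 1277 of 10987 were lower and 1068 higher. Those higher were 1230 in the main fit, 810 at 0.01, 141 with the covariate and 1014 to 1144 without an array. With IXB, 1 receptor fell, and 2 did with the replicate block, with array weights, with quantile normalization over all columns or at a threshold of 0.1, 0 at 0.01, and 0 to 1 with an array left out, 0 without methanol replicate 1, 2 or 4 or IXB replicate 2 or 3. Without IXB replicate 1 the 1 called was AT2G23950 (adjusted p = 0.0245). Median centring kept a count of 1 but called AT2G23950 (adjusted p = 0.0495) in place of AT1G68400. Of all probe sets, 184 were lower with IXB in the main fit, 16 at 0.01 and 54 to 152 with an array left out. There were 189 with the replicate block, 279 with array weights, 201 with quantile normalization and 429 at a threshold of 0.1. Median centring gave 138. In TA against IXB, 2 receptors were lower, and 0 were without dim probe sets, at a threshold of 0.01 or with the covariate, and 0 to 3 with an array left out, 0 without TA replicate 3 or IXB replicate 1, 2 or 4 and 1 without methanol replicate 4 or TA replicate 2. It was 3 with array weights, which added AT1G75640 (adjusted p = 0.0253), and 3 at a threshold of 0.1. There 0 receptors were higher, and 1 was without IXB replicate 1. Of all probe sets, 467 were lower in TA against IXB, 67 at 0.01 and 88 with the covariate. With an array left out 150 to 535 were lower. Without dim probe sets 522 of 11436 were lower, with array weights 697 and at a threshold of 0.1, 899. Those higher were 618 in the main fit and 439 without IXB replicate 1. Each called receptor has 1 probe set annotated to exactly that gene, so no other such probe set could be tried. Probe sets annotated to several genes and unnamed ones were not searched for further ones. Signal limits the dim genes: 28 of 38 means in the TA set were under 5.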
